A study of Homo sapiens with 24 samples.

Results

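The Krüppel-like factors (KLFs) are zinc finger transcription factors that bind GC-rich and CACCC-type sites in promoters. The 10 family members described here are KLF3, KLF4, KLF5, KLF6, KLF7, KLF9, KLF10, KLF11, KLF13 and KLF16, taken by gene symbol from a deposited table of 38849 genes in 24 libraries. The study asked which transcripts change their stability with RBMS3, an RNA-binding protein. HMLE, a line of human breast epithelium made immortal, carried either LacZ, a bacterial enzyme gene that serves as the control, or extra RBMS3. Both lines received actinomycin D, which blocks RNA synthesis, at 10 µg/mL for 0, 90, 180 or 360 min. Each of the 8 groups holds 3 libraries, and the sources do not say whether the 3 are separate cultures. The p-values thus rest on how far these libraries scatter, which could be technical alone. The promoter that drives LacZ or RBMS3, and whether a line is 1 clone, is not stated in the labels.

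KLFs share a conserved DNA-binding end and differ in the co-factors that the rest of the protein recruits. KLF3 binds the co-repressor CtBP. KLF4, KLF5, KLF6 and KLF7 act largely as activators and recruit histone acetyltransferases, and KLF4 and KLF5 are known for their roles in epithelial differentiation and proliferation. KLF9, KLF10, KLF11, KLF13 and KLF16 carry a region that binds the co-repressor SIN3A. Several KLF genes are immediate or delayed early genes with short-lived mRNAs, and short-lived mRNAs often carry AU-rich elements in the 3' UTR, to which decay factors such as ZFP36L1 bind. The proteins of the RBMS family prefer AU-rich RNA with an alternating pattern, of which ATATA (as DNA letters) is an example.

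The 3' UTR stretches below come from the protein-coding transcript with the most reads of each gene, read from GENCODE 29 transcripts. They set 4 members whose level fell under actinomycin D in both lines (KLF5, KLF6, KLF7, KLF9) beside 2 that did not pass the test (KLF13, KLF16), and the capitals mark ATTTA, the core letters of an AU-rich element. Each stretch has 30 bases. It was chosen as the first window of its 3' UTR with the most ATTTA, then centred on the matches. The capitals thus follow from the choice.

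KLF5: ctaggcaccatcATTTAatgtgacagtgtt

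KLF6: gtATTTAcaaatataacacaacaATTTAac

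KLF7: gcagctgcgtATTTAATTTAactctggttt

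KLF9: agcagagtctgaATTTAtactaatcaagac

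KLF13: cccccATTTAaaaaaggtcATTTAgtcaaa

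KLF16: gaatcctggcttATTTAttttcctctgtcc

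Every one of the 10 members held ATTTA at least once on the sense strand, as did 71.6% of 10847 tested genes, so the letters alone do not set the members apart. Their density did differ among the members. KLF5 had 3.02 ATTTA per 1000 bases of 3' UTR, KLF7 2.83, KLF11 2.58, KLF9 2.52, KLF4 2.23 and KLF10 2.22, against a median of 1.7 over the tested genes. KLF6 had 1.69, just under that median, KLF3 1.15, KLF16 0.971 and KLF13 0.893. The alternating pentamer ATATA, which can overlap itself and was searched on the sense strand, was present in 8 members and in 60.2% of the tested genes. KLF10 had 5.91 ATATA per 1000 bases, KLF5 4.83, KLF6 4.50, KLF4 4.46, KLF7 2.12 and KLF9 1.57, against a median of 0.848 over the tested genes. KLF11 had 0.429 and KLF13 0.179, and KLF3 and KLF16 had none. KLF3 also has reads on a longer transcript whose 3' UTR was not counted, and most KLF16 reads, 69.9% over the 24 files, lay on KLF16-202, which the annotation lists under nonsense-mediated decay. Of the KLF4 reads, 52.7% lay on KLF4-205, a transcript listed as a retained intron, and the counted 3' UTR is that of KLF4-206 (46.9%). A match is a description of letters, not a binding site.

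Values are the authors' normalized counts. Table sums were 6638187 to 8080428 per library, and the transcript files held 4426445 to 9856338 estimated reads. Normalized counts give a transcript's share of the measured RNA, so a rise or fall is relative to other transcripts, and fewer cells of a type and less RNA per cell cannot be told apart. RBMS3 itself lay between 27.6 and 165 in the 12 LacZ libraries and between 174 and 358 in the 12 RBMS3 libraries, with no overlap. Of 12 mammary epithelial markers, 9 were lower and KRT14 was higher in RBMS3 cells at 0 min, with EPCAM at a mean of 1716 against 0.707. At 90, 180 and 360 min all 12, KRT14 among them, were lower in RBMS3 cells. All 12 mesenchymal markers were higher at 0 min, with POSTN at 0 in the LacZ group against 1775. At each later time 11 of them were higher and none was lower. Of 12 leukocyte and endothelial markers, CD3E and CDH5 were among those at 0 in every library. Of the 2 that could be tested, CD68 was lower in RBMS3 cells at all 4 times (log2 -1.34 at 0 min, limma adjusted p = 0.017), and CD14 passed at none. Every difference between the lines given below goes with this shift of the 2 marker lists, whose part in it was not tested.

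Differences were tested with limma on log2(normalized count + 1) over the 12096 genes whose mean was at least 10, and passed at a Benjamini-Hochberg adjusted p under 0.05. KLF11 stayed under that mean, which left 9 members tested. Of the 8 other KLF genes in the table, KLF12 alone reached it, and it passed in no comparison.

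Over the whole course, 360 against 0 min, 7 of the 9 tested members fell in LacZ cells, where 13.6% of all tested genes fell and 28.5% passed in either direction. The same 7 fell in RBMS3 cells, where 18.6% of all tested genes fell and 37.6% passed in either direction. The 7 were KLF3, KLF4, KLF5, KLF6, KLF7, KLF9 and KLF10, and by limma no member rose; in each line 7 members had an unadjusted p under 0.05. The 9 had a median log2 change of -2.43 (LacZ) and -2.84 (RBMS3), against 0.029 and -0.006 over all tested genes. The members were chosen with earlier results of these data known, so setting them beside all tested genes is a description. KLF12, which is not among the 9, changed by 0.20 in LacZ and -0.80 in RBMS3 cells (limma adjusted p = 0.84 and 0.31).

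**Figure D1:**
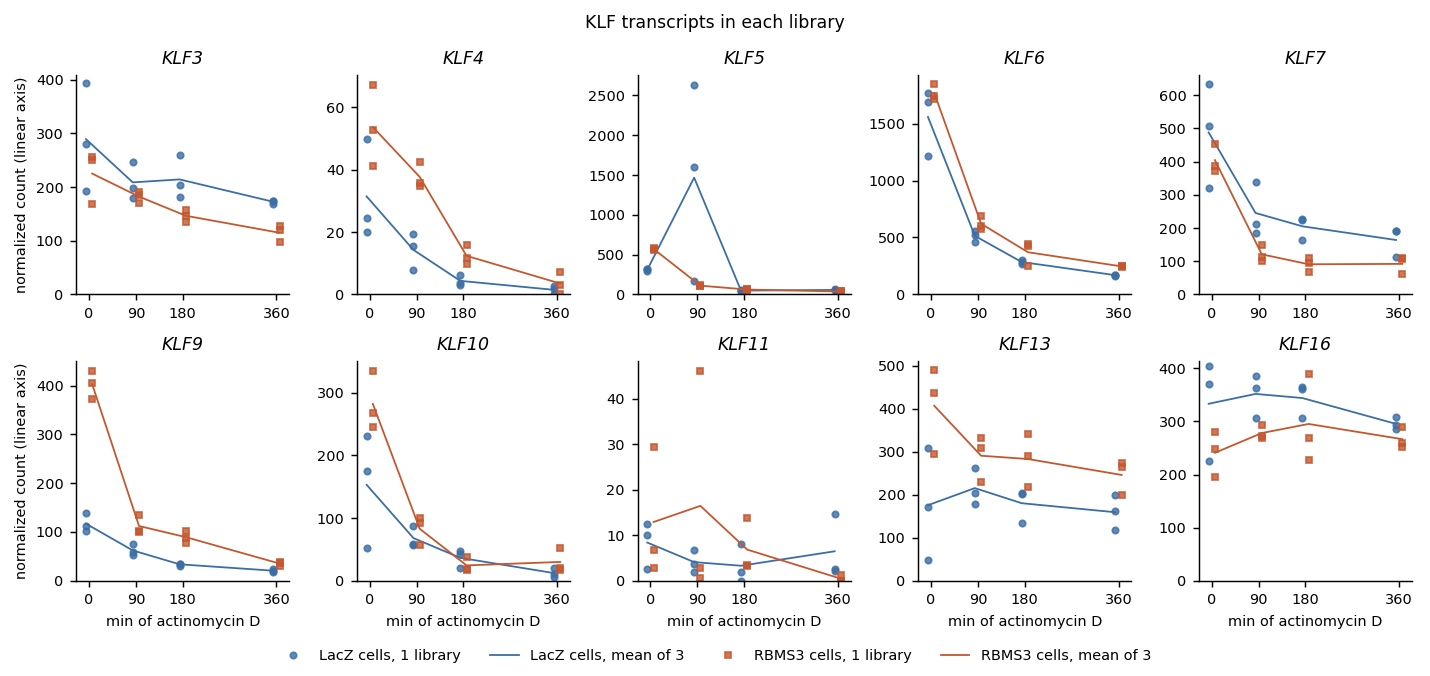
Normalized count (linear axis) of each KLF transcript against minutes of actinomycin D. Points are single libraries, circles for LacZ and squares for RBMS3 cells, and lines join the means of 3. KLF4, KLF6, KLF9 and KLF10 drop in both lines, KLF5 has 2 high LacZ libraries at 90 min (1598 and 2633), and KLF13 and KLF16 show no such drop.

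KLF3, the CtBP-binding repressor, fell slowly. In LacZ cells its normalized counts were 193, 395 and 279.9 at 0 min, 198, 248 and 181 at 90 min, 259, 181 and 203 at 180 min, then 174, 169 and 174 at 360 min. In RBMS3 cells they were 169, 256 and 249.8 at 0 min, 191, 171 and 185 at 90 min, 157, 147 and 136 at 180 min, then 97.8, 128 and 119 at 360 min. The 360 min libraries of each line lay below all of its 0 min libraries, and the RBMS3 libraries lay below the LacZ libraries at 180 and 360 min. KLF3 ended at 59.6% of its 0 min mean in LacZ cells, a log2 change of -0.68 ± 0.22 (SE; limma adjusted p = 0.022), and at 51.0% in RBMS3 cells, -0.95 ± 0.22 (adjusted p = 0.0016). At 0 min the difference between the lines was -0.33 on the log2 scale (limma adjusted p = 0.26). It passed with ribosomal protein scaling (-0.63, adjusted p = 0.023) and without LacZ 0 min replicate 1 (-0.59, adjusted p = 0.035). The difference between the lines in the 0 to 360 min change did not pass, so a different rate of loss is not shown. At 360 min KLF3 was lower in RBMS3 cells by a log2 difference of -0.59 ± 0.22 (limma adjusted p = 0.038). That call was lost without any 1 of 5 libraries (LacZ 360 min replicates 1, 2 and 3, RBMS3 360 min replicates 1 and 3; adjusted p 0.063 to 0.15). The LacZ fall lost its call without LacZ 0 min replicate 2 (-0.43, adjusted p = 0.15) or LacZ 360 min replicate 2 or 3 (adjusted p 0.058 and 0.051).

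KLF4, an activator and repressor of epithelial differentiation and a reprogramming factor, was nearly lost by 360 min in both lines. In LacZ cells the libraries had 24.5, 20.1 and 49.9 at 0 min, 19.5, 15.5 and 7.87 at 90 min, 6.09, 3.17 and 3.82 at 180 min, then 2.73, 1.71 and 0 at 360 min. In RBMS3 cells they had 67.2, 41.1 and 52.8 at 0 min, 35.7, 42.7 and 34.8 at 90 min, 11.6, 15.9 and 9.72 at 180 min, then 3.18, 0 and 7.34 at 360 min. Each later LacZ group lay wholly below the one before it, and the RBMS3 libraries lay above the LacZ libraries at 90 and 180 min. At 360 min LacZ cells kept 4.71% of the 0 min mean (log2 -3.80 ± 0.63, limma adjusted p = 0.00013) and RBMS3 cells 6.53% (-4.04 ± 0.63, adjusted p = 3.8e-05). With a pseudocount of 5 the LacZ change was -2.43, since the level is low. The differences between the lines, 0.83 ± 0.63 at 0 min and 1.42 ± 0.63 at 90 min, did not pass (limma adjusted p = 0.33 and 0.10). The 90 min difference passed with a pseudocount of 5 (1.19, adjusted p = 0.016), with the 2 groups fitted alone (adjusted p = 0.036) and without RBMS3 360 min replicate 2 (adjusted p = 0.043). At most 56 estimated reads stand behind a KLF4 value.

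KLF5, an activator of proliferation in basal epithelium, had 2 libraries that stand apart, and its results are given with and without them. LacZ libraries held 293, 317 and 323 at 0 min, then 1598, 172 and 2633 at 90 min, 49.7, 48.4 and 47.0 at 180 min, then 53.6, 65.4 and 52.1 at 360 min. RBMS3 libraries held 561, 575 and 582 at 0 min, 118, 103 and 110.1 at 90 min, 69.8, 67.0 and 47.7 at 180 min, then 39.6, 27.5 and 42.2 at 360 min. Replicates 1 and 3 of LacZ cells at 90 min exceed every other KLF5 value, while replicate 2 lies between the 0 and 180 min levels. In the transcript files KLF5 reads ranged from 32 to 758 over all 24 files. Just 2 of the 24 files place reads on KLF5-202, a transcript of 130 bases, with 3 and 5 reads there and 194 and 188 KLF5 reads in all. The names of 12 transcript files disagree with the samples they are attached to, so these 2 files were not matched to the 2 high libraries, and whether the short transcript sets the high values was not tested.

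With all libraries, KLF5 was lower in RBMS3 cells at 90 min by -3.02 ± 0.56 (limma adjusted p = 0.00031), and its 0 to 90 min change differed between the lines by -3.90 ± 0.80 (adjusted p = 0.0051). Without the 2 high libraries, an alternative chosen after the data were seen, the 90 min difference was -0.64 and the difference in change -1.52. Both then rest on LacZ 90 min replicate 2 alone, so no p-value is given for them. The LacZ change from 0 to 90 min turned from 1.53 ± 0.56 (limma adjusted p = 0.11) to -0.85, again on replicate 2 alone. KLF5 at 0 min, where the 3 RBMS3 libraries lay above the 3 LacZ libraries, differed by 0.88 either way, with limma adjusted p = 0.24 with all libraries and 0.0013 without the 2. At 360 min the order was the other way, with the RBMS3 libraries below the LacZ libraries (-0.65, limma adjusted p = 0.41 with all libraries and 0.013 without the 2). The difference between the lines in the 0 to 360 min change was -1.53 (limma adjusted p = 0.28 and 0.0017). By 360 min LacZ cells kept 18.3% of the KLF5 mean at 0 min (log2 -2.43 ± 0.56, limma adjusted p = 0.0027) and RBMS3 cells 6.36% (-3.96 ± 0.56, adjusted p = 1.2e-05). Both calls also passed without the 2 high libraries.

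KLF6, a widely expressed activator induced by growth signals and injury, fell early in both lines. LacZ libraries had 1687, 1219 and 1766 at 0 min, 459, 525 and 558 at 90 min, 282, 304 and 268 at 180 min, then 164, 173 and 170.0 at 360 min. RBMS3 libraries had 1846, 1740.1 and 1719 at 0 min, 571, 600.5 and 690.4 at 90 min, 247, 439.7 and 426 at 180 min, then 253, 249 and 238 at 360 min. Each later LacZ group lay wholly below the one before it, while the RBMS3 libraries at 180 and 360 min overlapped. By 90 min LacZ cells kept 33.0% of the 0 min mean and RBMS3 cells 35.1% (log2 -1.58 ± 0.17 and -1.51 ± 0.17; limma adjusted p = 4.3e-06 and 2.7e-06). By 360 min 10.9% and 13.9% remained (-3.18 ± 0.17 and -2.84 ± 0.17; limma adjusted p = 2.3e-11 and 8.7e-11). The difference between the lines in that change was 0.34 ± 0.24 and did not pass (limma adjusted p = 0.45). At 360 min the 3 RBMS3 libraries lay above the 3 LacZ libraries (0.54 ± 0.17, limma adjusted p = 0.016), and after scaling to ribosomal protein genes that difference was 0.38 (adjusted p = 0.091).

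KLF7, an activator known from neurons and adipose tissue, fell to a lower level in RBMS3 cells. LacZ libraries had 633, 321 and 508 at 0 min, 184, 339.7 and 212 at 90 min, 224, 165 and 226 at 180 min, then 190.2, 190.4 and 111 at 360 min. RBMS3 libraries had 386, 373 and 454 at 0 min, 113, 149.9 and 99.5 at 90 min, 66.5, 111 and 95.6 at 180 min, then 109, 60.5 and 106 at 360 min. The lines overlapped at 0 min and did not overlap at 90, 180 or 360 min. KLF7 was lower in RBMS3 cells by -0.99 ± 0.30 at 90 min, -1.18 ± 0.30 at 180 min and -0.83 ± 0.30 at 360 min (limma adjusted p = 0.016, 0.0043 and 0.035), against -0.22 ± 0.30 at 0 min (adjusted p = 0.61). The difference between the lines in the 0 to 360 min change, -0.61 ± 0.42, did not pass (limma adjusted p = 0.45), so a different rate of loss is not shown. The 90 min call was lost without LacZ 90 min replicate 2 or RBMS3 90 min replicate 3 (adjusted p 0.11 and 0.069), and the 360 min call without LacZ 360 min replicate 1 or 2 or RBMS3 360 min replicate 2 (adjusted p 0.13 to 0.19). Within RBMS3 cells most of the loss came by 90 min (29.9% left, log2 -1.75 ± 0.30, limma adjusted p = 0.00037), and 22.8% was left at 360 min against 33.6% in LacZ cells (-2.17 and -1.55; limma adjusted p = 8.6e-06 and 0.00056).

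**Figure D2:**
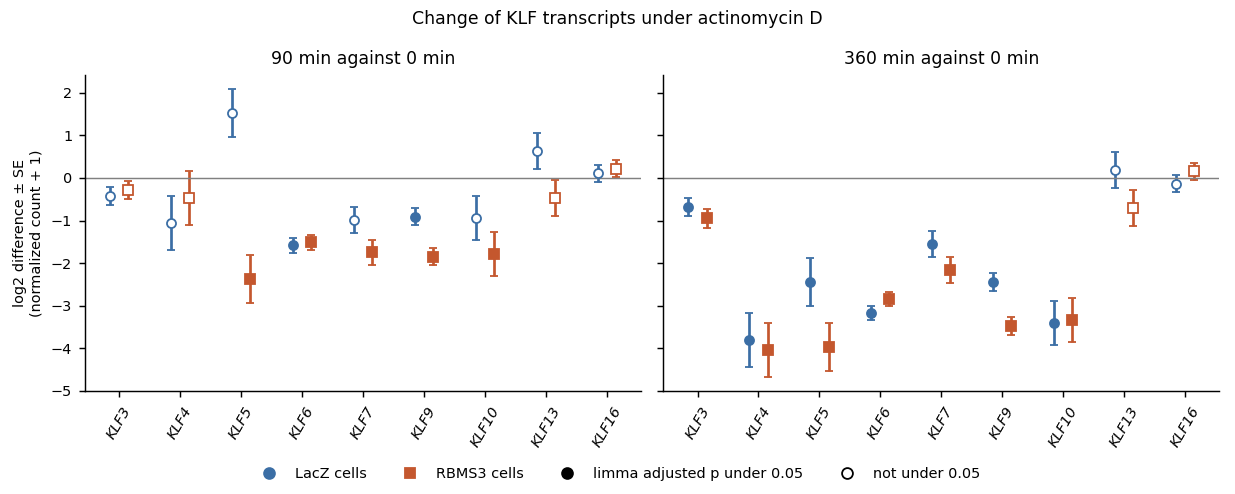
Log2 difference (± SE, normalized count + 1) from 0 min at 90 min (left) and 360 min (right) for the 9 tested members, LacZ as circles and RBMS3 as squares, filled where the limma adjusted p is under 0.05. At 360 min 7 members are filled below 0 in both lines, and KLF13 and KLF16 are open.

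KLF9, a SIN3A-binding repressor induced by glucocorticoid and thyroid hormone, was the member that differed between the lines at every time. LacZ libraries had 101, 112 and 138 at 0 min, 75.4, 52.1 and 58.9 at 90 min, 35.3, 35.0 and 30.7 at 180 min, then 18.4, 20.2 and 23.1 at 360 min. RBMS3 libraries had 430.4, 373 and 405 at 0 min, 100.4, 102 and 135 at 90 min, 101, 88.6 and 78.2 at 180 min, then 36.0, 38.8 and 30.9 at 360 min. The lines did not overlap at any of the 4 times. KLF9 was higher in RBMS3 cells by 1.79 ± 0.20 at 0 min, 0.85 ± 0.20 at 90 min, 1.38 ± 0.20 at 180 min and 0.75 ± 0.20 at 360 min (limma adjusted p = 5.9e-07, 0.0032, 2.0e-05 and 0.0068). With the 2 groups compared fitted alone, the 360 min call was lost (adjusted p = 0.12).

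KLF9 also lost a larger share of its 0 min level in RBMS3 cells. At 90 min LacZ cells kept 53.1% of the 0 min mean (log2 -0.91 ± 0.20, limma adjusted p = 0.010) and RBMS3 cells 27.9% (-1.85 ± 0.20, adjusted p = 2.5e-06), a difference of -0.94 ± 0.29 that did not pass (adjusted p = 0.066). At 360 min 17.6% and 8.74% remained (-2.45 ± 0.20 and -3.48 ± 0.20; limma adjusted p = 2.3e-08 and 7.3e-11), and that difference in change, -1.04 ± 0.29, passed (adjusted p = 0.032). Between 90 and 360 min LacZ cells changed by -1.54 and RBMS3 cells by -1.64, and the difference of -0.10 ± 0.29 did not pass (limma adjusted p = 0.99). The call for the 360 min difference in change is near the threshold. It was lost without LacZ 0 min replicate 1, LacZ 360 min replicate 2 or 3, RBMS3 0 min replicate 1 or 3, or RBMS3 360 min replicate 1 or 3 (adjusted p 0.050 to 0.073), with ribosomal protein scaling (-0.90, adjusted p = 0.054), with the groups compared fitted alone (adjusted p = 0.091) and with no filter on low values (adjusted p = 0.053), while the value stayed between -1.16 and -0.94 when single libraries were left out. The LacZ fall by 90 min lost its call without LacZ 90 min replicate 2 (adjusted p = 0.052) and with the 2 groups fitted alone (adjusted p = 0.20). Without LacZ 90 min replicates 1 and 3 together the change was -1.14, on replicate 2 alone.

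KLF10, a TGF-beta-induced early gene and SIN3A-binding repressor, fell in both lines. LacZ libraries had 232, 52.3 and 175 at 0 min, 88.0, 59.2 and 57.1 at 90 min, 46.9, 42.7 and 20.2 at 180 min, then 10.2, 6.75 and 19.7 at 360 min. RBMS3 libraries had 335, 245 and 268 at 0 min, 91.5, 100.3 and 57.2 at 90 min, 18.5, 17.1 and 38.0 at 180 min, then 51.6, 17.9 and 20.7 at 360 min. Its 0 min LacZ libraries spread widely, with replicate 2 below the 90 min libraries. By 360 min LacZ cells kept 7.99% of the KLF10 mean at 0 min (log2 -3.42 ± 0.52, limma adjusted p = 4.5e-05) and RBMS3 cells 10.6% (-3.34 ± 0.52, adjusted p = 3.2e-05), a difference of 0.08 ± 0.73 between the lines (adjusted p = 0.97). The 0 min difference of 1.11 ± 0.52 did not pass although the groups did not overlap (limma adjusted p = 0.099). It passed without LacZ 0 min replicate 1 (1.53, adjusted p = 0.036). Within RBMS3 cells the 90 min fall (-1.78 ± 0.52, limma adjusted p = 0.024) lost its call without RBMS3 0 min replicate 1 or 3 or RBMS3 90 min replicate 1 or 3 (adjusted p 0.050 to 0.097). The fall from 90 to 360 min (-1.56 ± 0.52, adjusted p = 0.045) lost its call without any 1 of 13 of the 24 libraries (adjusted p 0.050 to 0.17).

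KLF11, the TGF-beta-induced relative of KLF10, was too low to test. LacZ libraries had 10.1, 2.64 and 12.4 at 0 min, 3.69, 6.71 and 1.90 at 90 min, 8.07, 1.83 and 0 at 180 min, then 2.63, 14.6 and 2.23 at 360 min. RBMS3 libraries had 2.76, 6.68 and 29.3 at 0 min, 46.1, 0.546 and 2.80 at 90 min, 3.46, 3.29 and 13.8 at 180 min, then 0, 0 and 1.33 at 360 min. Its highest estimated read count was 19, so the 46.1 does not stand for as many reads.

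KLF13, a SIN3A-binding factor of lymphoid and cardiac tissue, was higher in RBMS3 cells at 0 min and by limma on the table passed in no comparison of times. LacZ libraries had 308, 48.2 and 170.3 at 0 min, 263, 204 and 178 at 90 min, 201, 205 and 134 at 180 min, then 162, 117 and 199 at 360 min. RBMS3 libraries had 435, 489 and 295 at 0 min, 309, 332 and 230.1 at 90 min, 218, 289 and 341 at 180 min, then 274, 198 and 265 at 360 min. The lines overlapped at 0, 90 and 360 min, and the RBMS3 libraries at 360 min lay below those at 0 min. The 0 min difference of 1.53 ± 0.42 (limma adjusted p = 0.0067) was 0.79 without LacZ 0 min replicate 2, the lowest library (adjusted p = 0.045), and lost its call when the 2 groups were fitted alone (adjusted p = 0.12). By 360 min 90.7% of the 0 min mean remained in LacZ cells and 60.5% in RBMS3 cells, and neither change passed (log2 0.19 ± 0.42, which is -0.34 with ribosomal protein scaling, and -0.71 ± 0.42; limma adjusted p = 0.79 and 0.20). In LacZ cells the mean of the counts went down and the mean of their logs up, with the 48.2 at 0 min weighing more on the log scale. The RBMS3 change of -0.71 passed with the 2 groups fitted alone (adjusted p = 0.046) and without LacZ 0 min replicate 2 (adjusted p = 0.039). It also passed after scaling to ribosomal protein genes, which puts the median change of all genes at -0.386 in RBMS3 cells (-1.09, adjusted p = 0.047).

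KLF16, a GC-box-binding repressor of metabolic genes, passed in no comparison. LacZ libraries had 371, 225 and 404 at 0 min, 363, 307 and 385 at 90 min, 307, 365 and 361 at 180 min, then 285, 308 and 292 at 360 min. RBMS3 libraries had 195, 279.5 and 248 at 0 min, 293, 273 and 269 at 90 min, 390.0, 227 and 269 at 180 min, then 259, 289.7 and 251 at 360 min. At 360 min LacZ cells had 88.6% of the 0 min mean and RBMS3 cells 111% (log2 -0.13 ± 0.20 and 0.16 ± 0.20, the latter -0.23 with ribosomal protein scaling; limma adjusted p = 0.68 and 0.57). With ribosomal protein scaling the LacZ change was -0.66 and passed (adjusted p = 0.011). The 0 min difference between the lines was -0.44 ± 0.20 (limma adjusted p = 0.094). It passed without LacZ 0 min replicate 2 (-0.70, adjusted p = 0.0051) and with ribosomal protein scaling (-0.74, adjusted p = 0.0042).

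**Figure D3:**
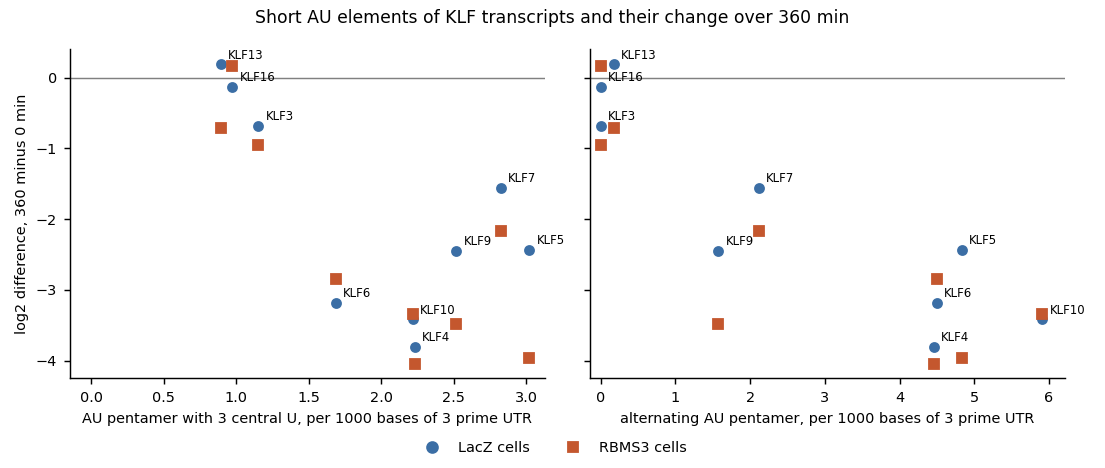
Log2 change from 0 to 360 min (vertical) against the number of AU pentamers per 1000 bases of 3' UTR (horizontal) for the 9 tested members, the pentamer ATTTA on the left and ATATA on the right, LacZ as circles and RBMS3 as squares. KLF3, KLF13 and KLF16 sit at the upper left of both panels, and the 6 members with larger losses sit lower and to the right.

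Set against the 3' UTR letters given above, the 6 members that lost the most by 360 min in both lines (KLF4, KLF5, KLF6, KLF7, KLF9 and KLF10) had 1.69 to 3.02 ATTTA and 1.57 to 5.91 ATATA per 1000 bases. KLF3, KLF13 and KLF16 had 0.893 to 1.15 and 0 to 0.179. The split was made after the changes were seen, and 9 transcripts of 1 family are not independent, so no test was made. Among the 6, the order of the losses did not follow the order of either density. KLF7, with 2.83 ATTTA per 1000 bases, lost less than KLF6, with 1.69. For ATATA that pair went the other way (2.12 in KLF7, 4.50 in KLF6), while KLF9, with 1.57, lost more than KLF7.

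**Figure D4:**
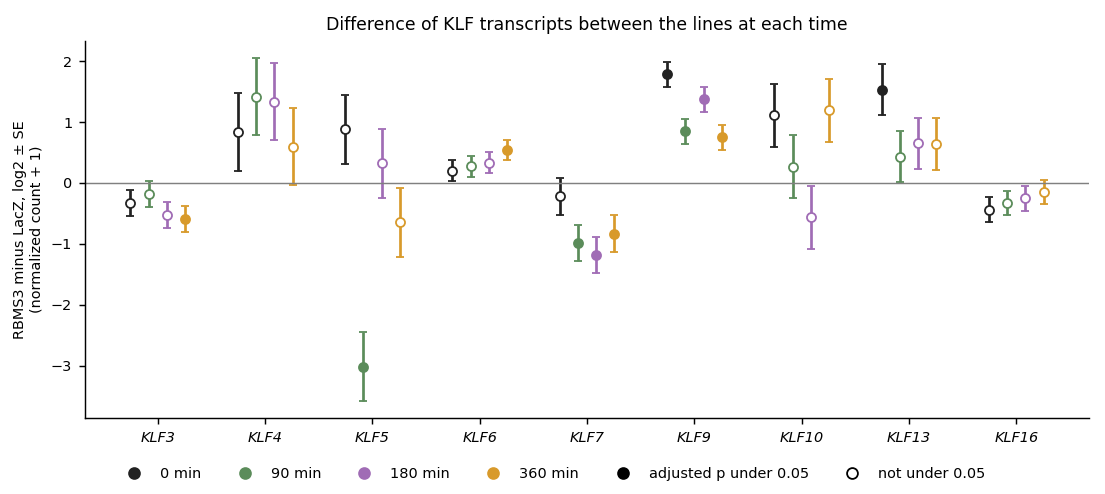
Log2 difference between RBMS3 and LacZ cells (± SE, normalized count + 1) for the 9 tested members at 0, 90, 180 and 360 min, filled where the limma adjusted p is under 0.05. KLF9 is filled above 0 at each time, KLF7 is filled below 0 from 90 min on, and the KLF5 point at 90 min (-3.02) rests on 2 libraries.

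Counted over the members, 2 of the 9 were higher (KLF9, KLF13) and none lower in RBMS3 cells at 0 min, where 37.5% of all tested genes differed. The count of 0 lower members stands beside 4 members with an unadjusted p under 0.05 in either direction. At 90 min 1 was higher (KLF9) and 2 lower (KLF5, KLF7), with 29.8% of all tested genes differing. At 180 min KLF9 was higher and KLF7 lower (33.1%), and at 360 min KLF6 and KLF9 were higher and KLF3 and KLF7 lower (35.2%). The shares of members past the threshold lay near these backgrounds, and are no result about the family.

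Within the lines, calls were also counted by interval. From 0 to 90 min KLF6 and KLF9 fell in LacZ cells, where 2.74% of all tested genes fell and 6.18% passed in either direction. KLF5, KLF6, KLF7, KLF9 and KLF10 fell in RBMS3 cells (6.52% fell and 14.5% passed). In LacZ cells KLF7 missed the threshold from 0 to 90 min (-0.98, limma adjusted p = 0.054) and passed under 7 alternatives (adjusted p 0.016 to 0.048), so the intervals in which a member passed are not shown to differ between the lines. From 90 to 360 min KLF4, KLF5, KLF6, KLF9 and KLF10 fell in LacZ cells (5.12% of all tested genes fell and 8.5% passed), and KLF3, KLF4, KLF6, KLF9 and KLF10 fell in RBMS3 cells (8.35% and 16%). Estimated counts could be used for the latter comparison, and edgeR's quasi-likelihood test and DESeq2 each put 8 of the 9 members past the threshold, with KLF16 the exception, where 24.2% and 21.7% of genes passed. The 3 added were KLF5 (log2 -1.68 by edgeR), KLF7 (-0.69) and KLF13 (-0.74), with edgeR adjusted p = 4.4e-05, 0.0080 and 0.0031. Both count fits used RBMS3 libraries alone. By limma KLF5 changed by -1.59 and also passed with the groups compared fitted alone (limma adjusted p = 0.012), a fit that holds no LacZ library. The differences between the lines in the changes over time share the 0 and 360 min libraries with the rest. They passed for KLF5 from 0 to 90 min (5.23% of all genes), for KLF9 from 0 to 360 min (7.77%), and for no member from 90 to 360 min, where limma passed 1 gene of all (0.00827%) and 1 member, KLF5, had an unadjusted p under 0.05.

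How many reads a table value stands for was checked in the 12 libraries with an undisputed transcript file, which are the LacZ libraries at 0 min and the RBMS3 libraries at 90, 180 and 360 min. The ratio of normalized count to estimated reads, relative to the library's median, was steady for KLF9 (1.00-fold range), KLF10 (1.02), KLF5 (1.04), KLF3 (1.24), KLF16 (1.25) and KLF6 (1.38). It ranged 2.25-fold for KLF7 and 3.25-fold for KLF13, against a median range of 1.25-fold over 8206 genes. Those genes had at least 20 estimated reads in each of the 12 libraries, a floor not set for the members. For KLF4 the ratio ranged 2.09-fold in 11 libraries and for KLF11 11.8-fold in 10. The highest KLF4 ratio rests on 5 estimated reads, and the highest KLF11 ratios on 6 and 2. For KLF13 the lowest ratio, 0.424, was in LacZ 0 min replicate 2 and the highest, 1.38, in LacZ 0 min replicate 1, whose estimated reads were 111 and 269. Reads of KLF13 divide between KLF13-201 of 6845 bases and KLF13-204 of 447 bases, and KLF13-204 held 13.1% of them in replicate 2 and 49.6% in replicate 1. Its part in the KLF13 difference at 0 min was not tested, since the RBMS3 files at 0 min are disputed. For KLF7 the ratio was 1.15 to 1.58 in the LacZ 0 min libraries and 0.702 to 1.21 in the RBMS3 libraries, and its part in the KLF7 results was not tested.

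**Figure D5:**
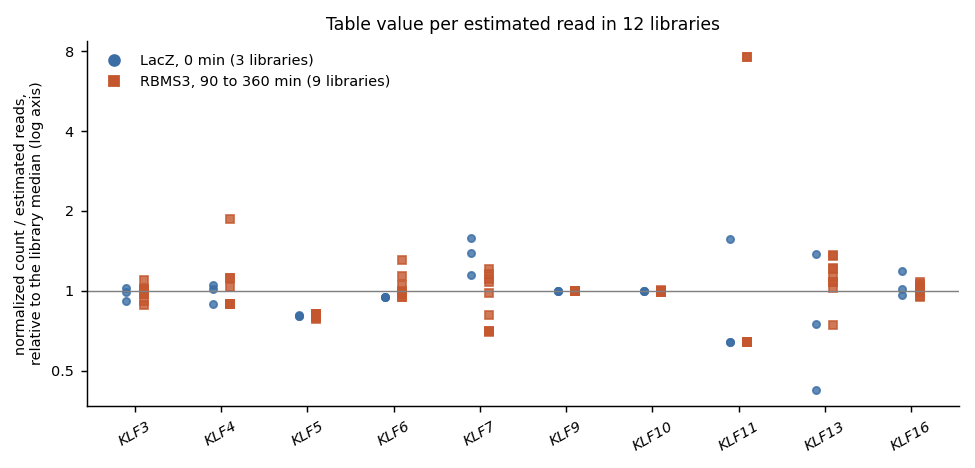
Normalized count divided by estimated reads, relative to the library's median ratio (log axis), for each member in 12 libraries: 3 LacZ libraries at 0 min as circles and 9 RBMS3 libraries at 90 to 360 min as squares. KLF9, KLF10 and KLF5 lie on 1 level each, while KLF7, KLF11 and KLF13 scatter. KLF4 has a ratio in 11 of the libraries and KLF11 in 10. The LacZ libraries at 90 min, with the high KLF5 values, are not shown.

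The genes whose profile over the 24 libraries was most like a member's were named by Pearson's r on log2(normalized count + 1), a description with no test, over libraries that share line, time and depth. KLF6 was most like ZFP36L1 (r = 0.954), SLC38A2 (0.948) and CEBPB (0.943). KLF9 was most like ID1 (0.954), ID3 (0.950) and FILIP1L (0.948). KLF10 was most like ZBED5 (0.912), KLF7 like MT-ND4L (0.932), KLF4 like RNF139 (0.926), KLF3 like AURKA (0.896) and KLF5 like DYRK2 (0.853). KLF13 and KLF16 had the weakest best matches, NEDD4 (0.835) and LGR4 (0.809). Among the members, the closest were KLF6 with KLF10 (0.899) and KLF6 with KLF9 (0.889), followed by KLF4 with KLF9 (0.856).

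The partners and relatives of the KLFs changed in part. Of 11 co-factor genes, 3 rose and 3 fell over 360 min in LacZ cells, and 5 rose and 4 fell in RBMS3 cells, where 28.5% and 37.6% of all tested genes passed. With ribosomal protein scaling none of the 11 rose in either line, and 6 fell in LacZ and 5 in RBMS3 cells. Of the 12096 tested genes 140 rose and 4554 fell in LacZ cells with that scaling, and 775 rose and 3835 fell in RBMS3 cells. SIN3A, the scaffold of the repressor complex that KLF9, KLF10, KLF11, KLF13 and KLF16 bind, fell by 2.38 ± 0.26 on the log2 scale in LacZ and fell by 2.01 ± 0.26 in RBMS3 cells (limma adjusted p = 7.8e-07 and 3.7e-06). The acetyltransferase EP300 fell by 1.05 ± 0.12 in LacZ cells and fell by 1.60 ± 0.12 in RBMS3 cells (limma adjusted p = 1.8e-06 and 3.1e-09). The KLF3 partner CTBP1 rose by 0.90 ± 0.17 in LacZ cells and by 0.51 in RBMS3 cells (limma adjusted p = 0.00045 and 0.023). With ribosomal protein scaling these were 0.37 and 0.12 and did not pass (adjusted p = 0.090 and 0.63). At 0 min 2 co-factor genes were higher and 4 lower in RBMS3 cells, where 37.5% of all tested genes differed. Among the lower were SIN3B (-0.80), HDAC2 (-0.77) and HDAC1 (-0.70), and CTBP1 was higher (0.68), at limma adjusted p = 0.0083, 0.00030, 3.5e-06 and 0.0032. Ribosomal protein scaling, which puts the median of all genes at -0.292 at 0 min and at -0.488 over the LacZ course, kept these directions, but at 0 min CTBP1 no longer passed (0.38, adjusted p = 0.079). HDAC1 and HDAC3, named after their values were seen, also rose in LacZ cells by 360 min (0.46 and 0.42), and turned to -0.071 and -0.10 with that scaling.

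Of 8 genes for enzymes that tag or process KLF proteins, 4 were lower and 1 was higher in RBMS3 cells before actinomycin D, where 37.5% of all tested genes differed. WWP1, a ubiquitin ligase of KLF5, was lower by -1.68 ± 0.20 at 0 min (limma adjusted p = 1.3e-06) and by -1.93 ± 0.20 at 360 min (adjusted p = 2.2e-07). The ligase gene SIAH1 fell over the course by 2.87 ± 0.54 on the log2 scale in LacZ and fell by 4.12 ± 0.54 in RBMS3 cells (limma adjusted p = 0.00043 and 4.2e-06). Of 5 tested genes of the related SP family, 2 fell in LacZ cells and 3 in RBMS3 cells by 360 min. Of all tested genes 13.6% and 18.6% fell, and 28.5% and 37.6% passed in either direction. With ribosomal protein scaling 4 SP genes fell in LacZ and 3 in RBMS3 cells. SP1 changed by -0.62 ± 0.15 and -1.02 ± 0.15 (limma adjusted p = 0.0045 and 2.3e-05). Of 17 tested genes for AU-rich element binding and deadenylation, 3 rose and 3 fell in LacZ cells and 2 rose and 4 fell in RBMS3 cells. These stand beside the 28.5% and 37.6% of all tested genes that passed. With ribosomal protein scaling none rose and 10 fell in LacZ cells, and 2 rose and 9 fell in RBMS3 cells. That scaling put 4554 and 3835 of the 12096 tested genes lower in LacZ and RBMS3 cells, and 140 and 775 higher. KHSRP, named after its values were seen, turned in LacZ cells from a log2 change of 0.27 (limma adjusted p = 0.0039) to -0.26 with that scaling (adjusted p = 0.0028). The decay activators ZFP36L1 (-2.18 ± 0.18 and -2.21 ± 0.18) and ZFP36L2 (-1.64 ± 0.35 and -3.19 ± 0.35) fell in both lines (limma adjusted p = 2.4e-08, 1.0e-08, 0.0015 and 5.3e-07). Before actinomycin D 6 genes of the AU-rich list were lower in RBMS3 cells and 3 higher, where 37.5% of all tested genes differed. With ribosomal protein scaling 7 were lower and 1 higher, where 3822 of all tested genes were lower and 1342 higher. The deadenylase subunits CNOT7 and CNOT1 differed by 1.16 ± 0.24 and -1.13 ± 0.31 (limma adjusted p = 0.00055 and 0.0058).

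In the promoter windows from RefSeq (assembly GRCh38.p14), 250 bases before to 50 after the start, 8 of the 10 members matched by symbol. GGGCGG on either strand was found in 5 of the 8 (KLF4, KLF6, KLF11, KLF13 and KLF16), against 71.1% of the promoters of tested genes. CACCC was found in 3 of the 8 (KLF5, KLF7 and KLF13), against 62.9%. CCAAT was in KLF6, KLF9 and KLF13 (36.8% of tested genes' promoters) and TATAAA in KLF5 (5.37%).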

How the data were processed

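The 24 libraries were made with QuantSeq, a method for mRNA 3' ends, and read as single reads of 75 bases, per the labels' protocols. The submitters' processing notes name Salmon 1.4.0, Trim Galore 0.6.6 and DESeq2 1.32.0. The sources used here name no genome build or annotation. A table of normalized counts came from the authors and is treated as a signal, since dividing it by 1 factor per library does not give whole reads. The authors also deposited, per the file headers, an estimated count of every one of 231288 transcripts in each library. The name of 12 of the 24 transcript files disagreed with the sample it is attached to; those were used for ranges over all 24 files and not by sample. Table columns were matched to samples by title.

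With R 4.3.3, limma 3.58.1 (trend on, without the robust option) was fitted on log2(normalized count + 1) with 8 group means over the 12096 genes with a mean of at least 10, with Benjamini-Hochberg adjustment over them and a threshold of 0.05. The log2 scale with a pseudocount of 1 understates changes of low genes. edgeR 4.0.16 and DESeq2 1.42.0 were run on rounded estimated counts summed over genes for RBMS3 cells at 360 against 90 min. Scripts were tested on simulated data. Same-numbered libraries deviated together in 1 of 84 pairs (r over 0.1; range -0.111 to 0.116), so numbers were not taken to pair samples. Of the transcripts, 88.4% matched GENCODE 29, with 95.1% to 95.7% of a library's estimated reads. The 3' UTR was taken from the protein-coding transcript with the most estimated reads. The sequence of KLF10 is not shown here.

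The members and gene lists were chosen with earlier results of these data known. All 10 members are named. From the other lists, genes that passed with groups that did not overlap were named, up to 4 a list and comparison by size. For likeness, genes are those with the highest r.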

Additional observations from a re-analysis of the deposited data

Results flagged for a closer look

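A test of the difference between the lines singled out 2 results. The change of KLF5 from 0 to 90 min differed between RBMS3 and LacZ cells by -3.90 on the log2 scale (limma adjusted p = 0.0051), with 2 of 3 LacZ libraries at 90 min far above every other library. Without those 2 it was -1.52, with LacZ replicate 2 the only library of its group left at 90 min. The change of KLF9 from 0 to 360 min differed by -1.04 (limma adjusted p = 0.032), with all 3 RBMS3 libraries above the 3 LacZ libraries at both times.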

How the results depend on the processing

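Counts of members past the threshold moved by over 1.5 times in these cases. With no filter on low values they were 2 for the lines at 360 min (4 as reported), 3 for RBMS3 cells from 90 to 360 min (5) and 0 for the difference between lines from 0 to 360 min (1). With ribosomal protein scaling they were 4 for the lines at 0 min (2) and 0 for the difference from 0 to 360 min (1). With the groups compared fitted alone they were 2 at 360 min (4), 1 for LacZ cells from 0 to 90 min (2) and 0 for the difference from 0 to 90 min (1). A pseudocount of 5 and a minimum mean of 50 each gave 2 for that difference (1). edgeR and DESeq2 gave 8 for RBMS3 cells from 90 to 360 min (5). Counts for LacZ cells from 0 to 90 and 90 to 360 min also moved without LacZ 90 min replicates 1 and 3. So did the count for the difference from 0 to 360 min. Replicate 2 alone is then left in that group, so these counts are not given.

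Leaving out each of the 24 libraries in turn gave 2 to 4 for the lines at 0 min, 2 to 5 at 360 min, 2 to 4 for LacZ cells from 0 to 90 min, 3 to 5 for RBMS3 cells from 90 to 360 min, and 1 to 2, 0 to 1 and 0 to 2 for the differences between lines from 0 to 90, 90 to 360 and 0 to 360 min. Among the 65 member and comparison pairs that passed under some setting, the values that changed sign were KLF5 in LacZ cells from 0 to 90 min (-0.85) and in the difference from 90 to 360 min (-0.010), both without LacZ 90 min replicates 1 and 3, KLF13 in LacZ cells from 0 to 90 min without LacZ 0 min replicate 2 (-0.11; range to 1.22 over the libraries left out) and KLF16 in LacZ cells from 0 to 360 min without LacZ 0 min replicate 3 (0.030; range from -0.39); the cause was not tested. Of the 52 pairs that passed under none, 14 changed sign under some setting. Over single members, 2100 values kept their direction and side of the threshold, 66 lost and 51 gained a call. Leaving out a library outside the groups compared cannot move a value, only its p-value. Many of the 2100 were thus bound to keep their direction, and the count is no measure of robustness. The fit with the replicate number as a block left each count as reported, 7 for LacZ cells from 0 to 360 min among them. Ribosomal protein scaling changed the split of all calls for LacZ cells from 0 to 360 min from 1800 higher and 1642 lower to 140 and 4554, and for RBMS3 cells from 2308 and 2244 to 775 and 3835. Depth limits KLF4 (at most 56 estimated reads) and KLF11 (at most 19).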
